A study of Saccharomyces cerevisiae with 8 samples.

Results

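The general stress response of the budding yeast Saccharomyces cerevisiae is represented here by 34 of 6002 nuclear protein-coding genes. They were listed as stress and reserve-carbohydrate genes, without a cut on any measured value, but with earlier results of these data known. They comprise the transcription factor genes MSN2 and MSN4 and 32 genes of trehalose, glycogen, sugar phosphate, glycerol, aldehyde, redox, membrane, wall and GABA metabolism. For each gene the nucleosomes were described from 800 bp upstream of the coding sequence to its end, and the windows of the 34 genes shared no base with each other (0 overlaps). Nucleosomes had been mapped by MNase-seq, in which micrococcal nuclease digests linker DNA and the protected fragments are sequenced. There were 8 libraries of the haploid cell line PPY1, synchronised in G1 and grown in rich medium (YPD), 4 untreated and 4 treated for 30 min at 30 °C with 100 µg/ml of 1,10-phenanthroline, a metal chelator used in yeast to block transcription. The series was designed to ask how gene length and transcription bear on the periodic arrangement of nucleosomes.

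All 8 libraries came from MATa cells with the alleles his3Δ0 and leu2Δ0, met15Δ0 and ura3Δ0, and with the disruption bar1::leu2, so the untreated controls carry these too. Each treatment had 1 library of each of 4 strain labels, and each strain was labelled as carrying an insert of 81 bp in 2 genes: CKB2 and DGK1 (strain 1), PPT1 and SLM3 (strain 2), TRP4 and PAN5 (strain 3), UBX5 and BSP1 (strain 4). None of these is among the 34 genes. The call coordinates went against those labels. Of 64 tests (8 libraries at 8 sites), 16 found a step of 78.5 to 83 bp between libraries, and 0 of these were in the strain whose label names that site. Both libraries with the same number shared their steps, so the treatments were compared as labelled and each sample is called the library labelled strain 1, 2, 3 or 4. MET17 (the gene labelled met15) and URA3 held 0 calls in all 8 libraries. No strain was repeated within a treatment, and the labels do not say whether libraries came from separate cultures, so the spread behind each p-value is that among strains and may be technical.

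In the general stress response, Msn2 and Msn4 are zinc-finger activators that are held in the cytoplasm by protein kinase A in cells growing on glucose. On heat, osmotic or oxidative stress or nutrient loss they enter the nucleus and bind stress response elements upstream of target genes. Their targets make protectants (trehalose, glycerol), reserves (glycogen), antioxidant enzymes and small stress proteins, and many of their promoters hold positioned nucleosomes when the genes are little expressed. Transcript levels were not analysed here.

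The deposited value of each nucleosome call is a score between 0 and 1, the mean of a height score, which follows the coverage at the call, and a width score, which falls as the fragments scatter. The upstream score of a gene is the mean score of the calls whose centre (dyad) lies in the 800 bp before its coding sequence. Under phenanthroline the upstream score was lower in 12 of the 34 stress genes and higher in 1 (limma, adjusted p under 0.05 over 5891 genes). The 12 were GSY1, GSY2, GPH1, GAC1, HXK1, GPD1, GPP2, GRE3, ALD3, DDR2, GRE1 and GAD1, and UGA2 was higher. Over all genes 14.1% were called lower and 1.63% higher. The difference was below 0 in 32 of the 34, with a median of -0.0900, against -0.0294 over all genes. The genes' median upstream score ran from 0.627 to 0.691 in the 4 untreated libraries and from 0.551 to 0.571 in the 4 phenanthroline libraries, without overlap. Over all genes it ran from 0.787 to 0.806 and from 0.741 to 0.777, so the stress genes stood lower in every library. A profile of a population cannot tell a nucleosome missing from some of the cells from a weaker signal in all of them.

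Scores of whole libraries were lower as well. The mean call score was 0.652 to 0.664 without and 0.642 to 0.648 with phenanthroline, and calls of the authors' well-positioned class made up 53.0% to 56.8% and 47.5% to 51.5%. With each library's scores centred on its own median, 5 of the 12 stress genes passed (ALD3, DDR2, GPD1, GPH1 and GRE1), UGA2 stayed higher, and the split over all genes was 126 higher and 244 lower in place of 96 and 830. The number of calls moved with single strain labels. DDR2 alone passed without strain label 1, ALD3, DDR2, GPD1 and GPH1 passed as lower without strain label 4, 7 genes were lower without strain label 2 and 11 without strain label 3. UGA2 passed as higher without strain labels 2 and 3 and not without 1 and 4. The called genes changed with other settings too. With 400 bp upstream 14 stress genes were lower (837 of 5691 genes), and ALD3, GSY1, GSY2 and UGA2 were not called. The median over calls gave 10 (525 of 5891 genes), without GAC1, GAD1, GPD1, GSY2 and HXK1. Calls of score 0.4 or more gave 14 (852 of 5859 genes), without ALD3, GPD1 and GPP2. In the last 2 settings GLK1 and UGA2 were higher. The upstream windows hold few calls, with a mean of 4.15 per stress gene in untreated and 4.25 in phenanthroline libraries. Of the 12 genes with a lower score, 7 had more upstream calls under phenanthroline, 4 fewer and 1 the same number.

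Calls also lay close to each other. Of the neighbouring pairs of calls upstream of the stress genes, 36.4%, 29.8%, 39.8% and 32.1% overlapped in the 4 untreated libraries, meaning that their dyads lay closer than the length of DNA in a nucleosome core, which is the span of nearly all calls. In the phenanthroline libraries 43.1%, 41.6%, 41.8% and 41.7% did, so the groups do not overlap. Over all genes the percentages ran from 18.5 to 20.8 and from 22.9 to 27.6. Intact nucleosomes at such a pair of positions cannot lie on the same DNA molecule. At GRE1 the mean number of such pairs was 1.5 without and 5 with phenanthroline, at GPH1 0.75 and 3.5, and at ALD3 0.5 and 1.75. It was lower with phenanthroline at TFS1 (2.75 and 1.25) and at UGA2 (3.25 and 1.75). Of the 34 genes 17 had more such pairs under phenanthroline, 9 fewer and 8 the same number, of which GAD1, NTH1, CYC7 and RTN2 had 0 in every library. The part of such pairs and of call number in the lower scores was not tested.

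**Figure D1:**
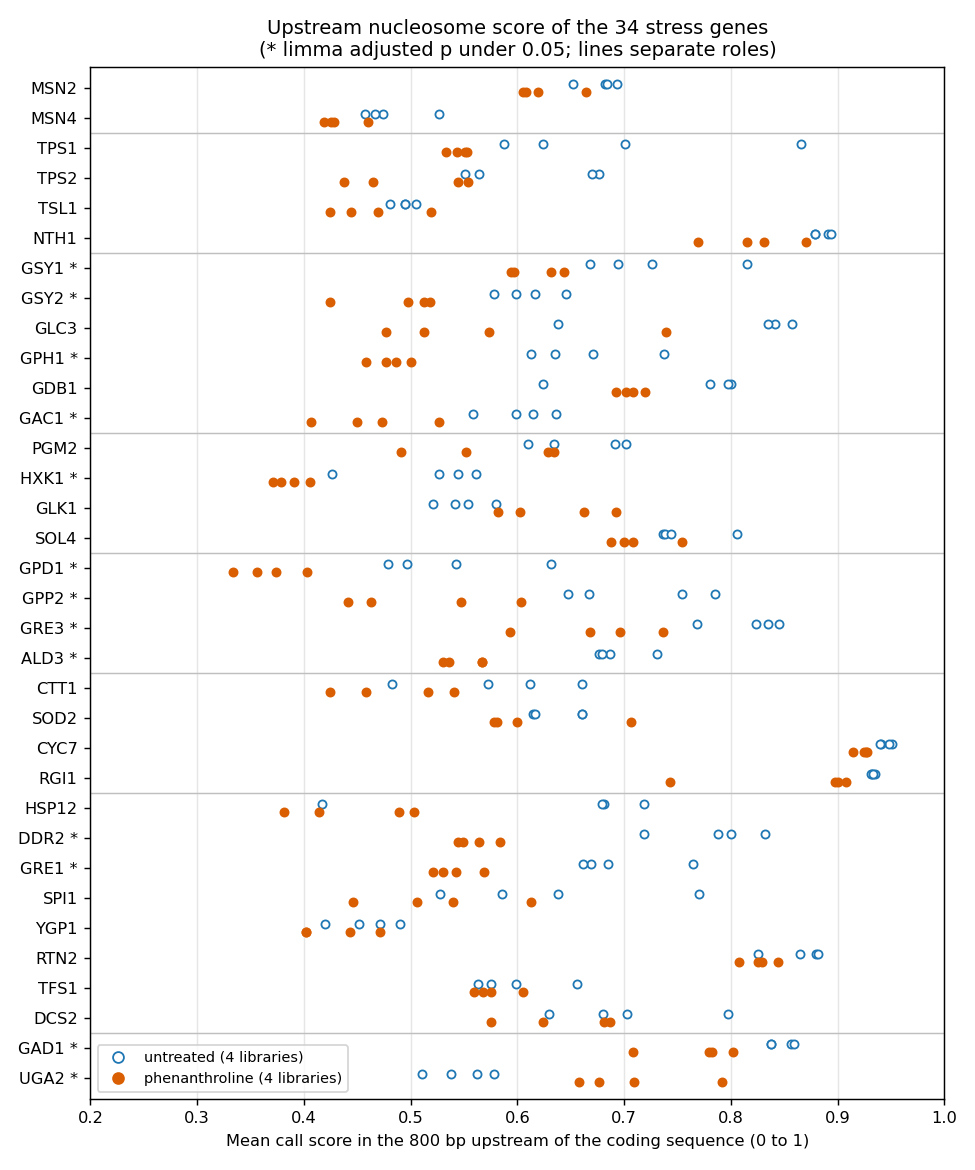
Mean call score in the 800 bp upstream of the coding sequence (x axis, score from 0 to 1) for each of the 34 stress genes, with a point for each of 4 untreated (open blue) and 4 phenanthroline (filled orange) libraries; lines separate roles and asterisks mark limma adjusted p under 0.05. In 12 of the 13 genes with an asterisk the phenanthroline points lie to the left of the untreated ones, and in UGA2 they lie to the right.

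Values of single libraries are given in the order of strain labels 1 to 4. The counts of falls by role below stand against 14.1% of all genes called lower upstream. Among the regulators, neither upstream score passed. For MSN2 (YMR037C, chromosome XIII, 344403 to 346517, reverse strand) it was 0.682, 0.652, 0.684 and 0.693 in untreated and 0.605, 0.608, 0.665 and 0.619 in phenanthroline libraries (difference -0.0534, SE 0.0192, limma adjusted p = 0.0921). The groups overlap only between the untreated library labelled strain 2 and the phenanthroline library labelled strain 3. For MSN4 (YKL062W, chromosome XI, 323228 to 325120, forward strand) it was 0.475, 0.467, 0.457 and 0.527 against 0.425, 0.460, 0.428 and 0.419 (difference -0.0484, SE 0.0201, limma adjusted p = 0.136), and a treated value lies within the untreated range. In both genes the height score alone was lower (limma adjusted p = 0.0453 for MSN2 and 0.0245 for MSN4).

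Trehalose, a protectant sugar, is made by the synthase Tps1 and the phosphatase Tps2 with the regulatory subunit Tsl1, and is broken down by the neutral trehalase Nth1. The upstream score passed in 0 of these 4 genes, with differences from -0.149 (TPS1, groups apart, limma adjusted p = 0.0887) to -0.0297 (TSL1) and a median of -0.0897. The height score alone was lower at TPS2 (difference -0.243, limma adjusted p = 0.0303) and at NTH1 (-0.106, limma adjusted p = 0.0258).

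Of the 6 glycogen genes 4 fell. The largest called fall in this group was at GPH1 (YPR160W, chromosome XVI, 861306 to 864014, forward strand), which encodes glycogen phosphorylase, the enzyme that releases glucose units from the reserve. Its upstream score was 0.635, 0.671, 0.737 and 0.613 in untreated and 0.458, 0.477, 0.5004 and 0.486 in phenanthroline libraries (difference -0.184, SE 0.0273, limma adjusted p = 0.00635). The groups lie far apart, and GPH1 held 4.5 upstream calls on average without and 6.25 with the drug. GAC1 (YOR178C, chromosome XV, 667860 to 670241, reverse strand), the subunit that directs the phosphatase Glc7 to glycogen synthase, fell from 0.598, 0.636, 0.559 and 0.615 to 0.450, 0.473, 0.407 and 0.526 (difference -0.138, SE 0.0281, limma adjusted p = 0.0176). It held 2 to 4 upstream calls per library.

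The glycogen synthase genes GSY1 and GSY2 both fell. GSY2 (YLR258W, chromosome XII, 660716 to 662833, forward strand) had 0.617, 0.646, 0.578 and 0.599 in untreated and 0.512, 0.425, 0.518 and 0.498 in phenanthroline libraries (difference -0.122, SE 0.0254, limma adjusted p = 0.0188, 0.0567 with the strain label as a block). GSY1 (YFR015C, chromosome VI, 174265 to 176391, reverse strand) had 0.695, 0.815, 0.726 and 0.668 and 0.594, 0.644, 0.631 and 0.596 (difference -0.109, SE 0.0315, limma adjusted p = 0.0486). In both the groups did not overlap, and for GSY1 the limma adjusted p lay just inside the threshold. The largest difference of the 6 was at GLC3, the branching enzyme, at -0.217, and it did not pass (groups overlap, limma adjusted p = 0.0563, 0.0401 with the block). GDB1, the debranching enzyme, had a difference of -0.0451 (limma adjusted p = 0.449).

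All 4 genes of glycerol and aldehyde metabolism fell. GPP2 (YER062C, chromosome V, 279930 to 280682, reverse strand), a glycerol phosphatase, had 0.754, 0.785, 0.648 and 0.667 in untreated and 0.463, 0.604, 0.441 and 0.547 in phenanthroline libraries (difference -0.200, SE 0.0438, limma adjusted p = 0.0214). GPD1 (YDL022W, chromosome IV, 411825 to 413000, forward strand), the glycerol phosphate dehydrogenase induced by osmotic stress, had 0.497, 0.543, 0.479 and 0.632 and 0.374, 0.356, 0.333 and 0.403 (difference -0.171, SE 0.0336, limma adjusted p = 0.0158). The groups of both genes were apart, with the lowest untreated value in the library labelled strain 3 each time. Both genes held 2 to 4 upstream calls per library, so each score rests on few calls. GRE3 (YHR104W, chromosome VIII, 323409 to 324392, forward strand), an aldose reductase, had 0.823, 0.768, 0.835 and 0.845 and 0.668, 0.696, 0.593 and 0.736 (difference -0.145, SE 0.0318, limma adjusted p = 0.0215). ALD3 (YMR169C, chromosome XIII, 599352 to 600872, reverse strand), a cytosolic aldehyde dehydrogenase, had 0.676, 0.731, 0.687 and 0.679 and 0.567, 0.567, 0.530 and 0.536 (difference -0.143, SE 0.0191, limma adjusted p = 0.00468). ALD3 stands beside its near copy ALD2, and GPP2 has the near copy GPP1 elsewhere, so calls inside these coding sequences may share reads and are uncertain.

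Of the 4 genes of sugar phosphates 1 fell, HXK1, which held 2 to 6 upstream calls per library. HXK1 (YFR053C, chromosome VI, 253592 to 255049, reverse strand), a hexokinase made when glucose runs low, had 0.545, 0.561, 0.427 and 0.527 in untreated and 0.371, 0.406, 0.378 and 0.390 in phenanthroline libraries (difference -0.128, SE 0.0291, limma adjusted p = 0.0234), and the groups did not overlap. GLK1, the glucokinase, differed the other way without passing (0.0855, groups apart, limma adjusted p = 0.0647), and its height score alone was higher (limma adjusted p = 0.0297). PGM2 (phosphoglucomutase) and SOL4 (a phosphogluconolactonase) had differences of -0.0829 and -0.0435 and did not pass.

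Of the 8 genes for membrane, wall and other stress proteins DDR2 and GRE1 fell, and all 8 differences were below 0. DDR2 (YOL052C-A, chromosome XV, 231570 to 231755, reverse strand), a small protein induced by DNA damage and other stresses and a common reporter of Msn2 and Msn4, had the largest difference of the 34. Its upstream score was 0.832, 0.80005, 0.719 and 0.788 in untreated and 0.564, 0.545, 0.584 and 0.549 in phenanthroline libraries (difference -0.225, SE 0.0250, limma adjusted p = 0.00343), and it passed without each strain label in turn. GRE1 (YPL223C, chromosome XVI, 128632 to 129138, reverse strand), a hydrophilin of osmotic stress, had 0.669, 0.764, 0.662 and 0.685 and 0.542, 0.530, 0.569 and 0.521 (difference -0.155, SE 0.0253, limma adjusted p = 0.00917). The groups of both genes lie apart, and GRE1 had 5.25 upstream calls without and 7.25 with the drug.

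HSP12 (YFL014W, chromosome VI, 107256 to 107585, forward strand), a small membrane-associated heat shock protein and another common reporter, had 0.719, 0.681, 0.417 and 0.679 in untreated and 0.415, 0.381, 0.503 and 0.489 in phenanthroline libraries. These values are means of few calls, 3, 3, 4 and 3 in untreated and 4, 1, 2 and 2 in phenanthroline libraries. The untreated library labelled strain 3 lies among the treated ones, and the difference of -0.177 (SE 0.0640) did not pass (limma adjusted p = 0.0936). Without the libraries of that label HSP12 passed as lower. The other 5 genes were SPI1 and YGP1 (wall and secreted glycoproteins), RTN2 (a reticulon), TFS1 (an inhibitor of carboxypeptidase Y) and DCS2 (a regulator of decapping), and none of them passed.

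Of the 4 genes of oxidative stress and respiration none passed upstream. CTT1 (YGR088W, chromosome VII, 654634 to 656322, forward strand), the cytosolic catalase and the classic target of Msn2 and Msn4, had 0.572, 0.661, 0.482 and 0.612 in untreated and 0.424, 0.540, 0.516 and 0.458 in phenanthroline libraries (difference -0.0972, SE 0.0406, limma adjusted p = 0.137). Its groups overlap, since the untreated library labelled strain 3 is low. SOD2 (mitochondrial superoxide dismutase), CYC7 (a cytochrome c made at low oxygen) and RGI1 (a protein of respiratory growth) had differences of -0.0215, -0.0216 and -0.0706. CYC7 and RGI1 had the highest untreated upstream scores of the 34, with means of 0.945 and 0.933.

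The GABA shunt genes moved in opposite directions. GAD1 (YMR250W, chromosome XIII, 770801 to 772558, forward strand), glutamate decarboxylase, had 0.838, 0.837, 0.856 and 0.859 in untreated and 0.708, 0.802, 0.783 and 0.780 in phenanthroline libraries (difference -0.0793, SE 0.0223, limma adjusted p = 0.0456, 0.0717 with the block). UGA2 (YBR006W, chromosome II, 247010 to 248503, forward strand), succinate semialdehyde dehydrogenase, had 0.578, 0.510, 0.562 and 0.538 and 0.677, 0.792, 0.709 and 0.657 (difference 0.162, SE 0.0307, limma adjusted p = 0.0135). The groups of both were apart. The called rises of single nucleosomes before UGA2 were at -672 and -516 bp from its start, and both lie inside the neighbouring gene RCR1. With calls inside other coding sequences left out, its difference was 0.0698 (limma adjusted p = 0.181), and it had 6 upstream calls without and 4.75 with the drug. The upstream window of the stress genes held a median of 689.5 bp outside other coding sequences, against 469 bp over all genes, and 15 of the 34 had all 800 bp outside. With such calls left out, 14 stress genes were lower and 0 higher, and 18.3% of 4989 genes were called lower. GDB1, GLC3 and PGM2 were then called and UGA2 was not. For PGM2 in the phenanthroline libraries these scores equal those of a single nucleosome, its +1, described below. The same holds for GDB1 in the untreated libraries labelled strain 1, 2 and 4. For these genes the upstream and +1 results are therefore not independent. GSY1 crossed the threshold with nearly the same difference (-0.108, limma adjusted p = 0.0564).

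The height and width scores were also taken alone. With the height score alone, 15 of the 34 genes were lower upstream and 2 were higher (GLK1 and UGA2), with a median difference of -0.137, against -0.0447 over all genes, where 19.2% were called lower. With the width score alone, 1 gene was lower (GPD1) and 1 higher (UGA2), with a median of -0.0406 and 2.21% of all genes called lower. DDR2 had the largest change in height, from 0.883 ± 0.0571 to 0.482 ± 0.0269 (SD, n = 4, limma adjusted p = 0.000772). Its width score differed by -0.0485 (limma adjusted p = 0.236). GPP2 and GPH1 followed in height, with differences of -0.324 and -0.322 (limma adjusted p = 0.0183 and 0.00208). A difference between the parts was not tested.

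**Figure D2:**
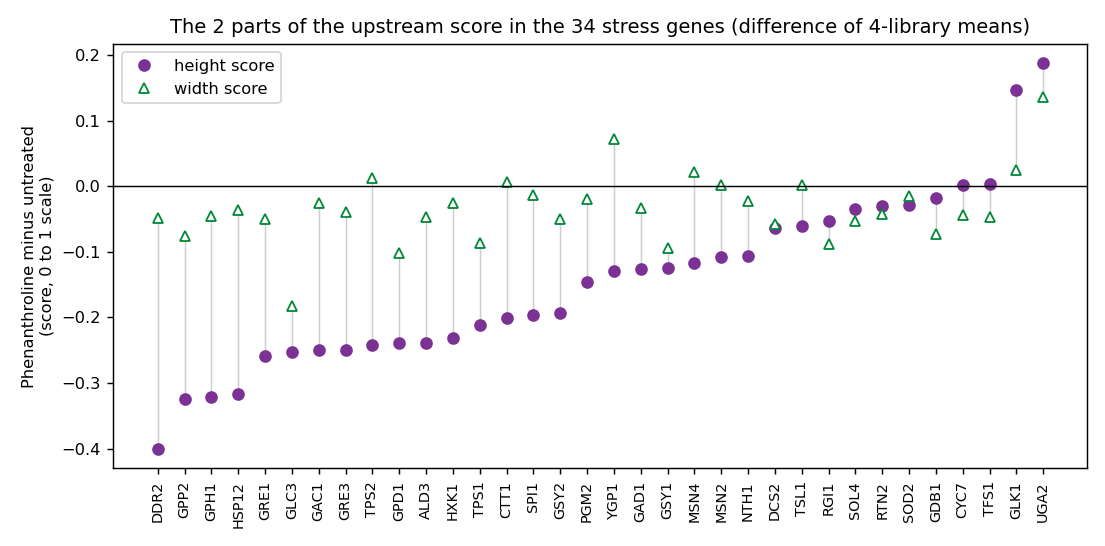
Difference of the height score (filled circles) and of the width score (open triangles) between phenanthroline and untreated libraries (y axis, score scale from 0 to 1, means of 4 libraries each) in the 800 bp upstream of each of the 34 stress genes, ordered by height. DDR2 stands lowest in height at -0.401 with a width difference of -0.0485, and UGA2 highest at 0.187.

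Single nucleosomes were followed in a consensus map of all 8 libraries. The 34 windows held 545 consensus nucleosomes, of which 372 were called in every library and could be tested. The score was lower at 39 and higher at 8 of them, against 5.51% lower and 2.87% higher over 60135 nucleosomes of the genome. Upstream 23 of 103 were lower (22.3%, in 20 genes), and inside the coding sequence 16 of 269 (5.95%, in 10 genes). Over the genome 8.16% of 18442 nucleosomes within 800 bp upstream of a gene were lower, and 3.49% of 47475 inside a coding sequence. Upstream and outside every coding sequence, 22 of 76 were lower and 0 higher (28.9% lower, median difference -0.103). The same place before all genes had 13.2% lower among 8485 nucleosomes, with a median difference of -0.0297. Without strain label 1 the falls numbered 3, without 4 they were 10, without 2 they were 22 and without 3 they were 28. On centred scores there were 23, and the genome-wide split was 2838 higher and 2188 lower in place of 1726 and 3313.

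The +1 nucleosome is the first downstream of the widest gap near the gene start. That gap is taken by rule, so the nucleosomes beside it need not flank a depleted region. Of the 30 stress genes whose +1 was called in all libraries, 10 had a lower score and 0 a higher one (33.3%, median difference -0.121), a count chosen after seeing the data. Over all genes 7.36% of 5542 such nucleosomes were lower, with a median of -0.0118. The 10 were GPD1, PGM2, GDB1, GAD1, GRE3, HXK1, DCS2, TFS1, GLC3 and YGP1. A +1 dyad before the coding start, as at GPD1, PGM2 and GDB1, also counts in the upstream score and among the upstream nucleosomes. GPD1 held 2 to 4 upstream calls per library. The upstream and +1 falls of such genes are therefore not separate results. At the -1 nucleosome, on the other side of the gap, 3 of 28 were lower (DDR2, HXK1 and MSN2; 10.7%), against 12.3% over all genes. With the strain label as a block 6 of the 10 passed (GPD1, PGM2, GAD1, GRE3, DCS2 and GLC3). Without strain label 1 PGM2 alone passed, and without strain label 2, 3 or 4 there were 4, 5 and 3. Averaged over the 34 genes, the +1 score was 0.722 ± 0.0195 in untreated and 0.628 ± 0.0117 in phenanthroline libraries (SD, n = 4), and 0.830 ± 0.00767 and 0.803 ± 0.00679 over all genes.

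**Figure D3:**
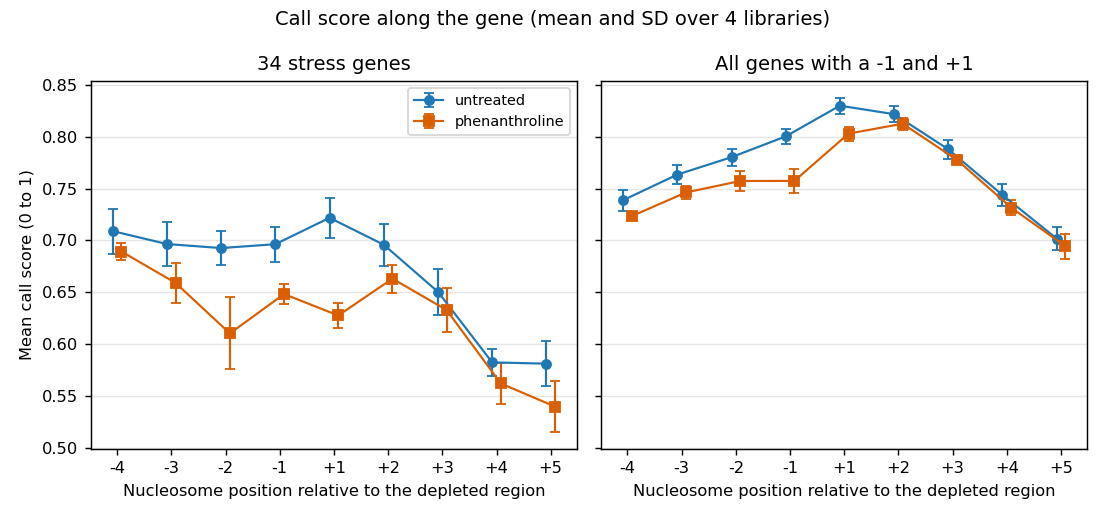
Mean call score (y axis, 0 to 1) by nucleosome position counted from the widest gap near the gene start, labelled depleted region (x axis). The 34 stress genes are on the left and all genes on the right. Points are mean and SD over 4 untreated (blue circles) and 4 phenanthroline (orange squares) libraries. The stress genes, fewer from +2 on (28 at +5), lie lower at every position. Their groups do not overlap at -2, -1, +1 and +5, and their widest gap is at +1. Over all genes the groups do not overlap at -1 and +1.

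The +1 of GPD1, at -134 bp from the coding start (chromosome IV, dyad 411691), had the largest difference. Its score was 0.847, 0.846, 0.653 and 0.871 in untreated and 0.334, 0.331, 0.327 and 0.583 in phenanthroline libraries (difference -0.410, SE 0.0704, limma adjusted p = 0.0140). The height score fell by more than the width score, with differences of -0.603 and -0.217. The +1 of PGM2, at -149 bp, followed with 0.894, 0.861, 0.808 and 0.828 and 0.608, 0.477, 0.441 and 0.605 (difference -0.315, SE 0.0433, limma adjusted p = 0.00637). It passed without each strain label in turn. The +1 of GDB1, at -83 bp, had 0.902, 0.878, 0.839 and 0.891 and 0.465, 0.453, 0.675 and 0.768 (difference -0.288, limma adjusted p = 0.0406, 0.0585 with the block). Its treated libraries spread widely, and the call was lost whichever of the 4 strain labels was left out.

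Farther upstream, the nucleosome with the largest fall was at CTT1 and the next at DDR2. At DDR2 the nucleosome at -237 bp had 0.853, 0.841, 0.777 and 0.883 in untreated and 0.542, 0.456, 0.494 and 0.658 in phenanthroline libraries (difference -0.301, SE 0.0448, limma adjusted p = 0.00824). Nearly all of this was height, with a difference of -0.590 against -0.0125 in width. At CTT1 the nucleosome at -526 bp had 0.656, 0.842, 0.528 and 0.807 and 0.320, 0.406, 0.537 and 0.348 (difference -0.305, SE 0.0753, limma adjusted p = 0.0440, 0.0824 with the block). Here the groups overlap, as the libraries labelled strain 3 had nearly the same value. At HSP12 the +1 at -53 bp was called in 4 untreated libraries and in 1 phenanthroline library, so it could not be tested, and the nucleosome at -405 bp was called in 4 and 2.

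Falls stood before the glycogen genes too. At GPH1 the nucleosome at -236 bp had 0.628, 0.707, 0.777 and 0.624 in untreated and 0.415, 0.454, 0.437 and 0.436 in phenanthroline libraries (difference -0.249, SE 0.0359, limma adjusted p = 0.00753). At GSY2 the nucleosome at -235 bp had 0.761, 0.570, 0.535 and 0.757 and 0.381, 0.314, 0.434 and 0.411 (difference -0.271, SE 0.0578, limma adjusted p = 0.0279). Neither pair of groups overlaps. GSY2 also fell at -656 and -483 bp and GPH1 at -413 bp. At TPS1 the nucleosome at -626 bp, inside the divergent neighbour MEO1, had 0.719, 0.877, 0.553 and 0.781 and 0.436, 0.387, 0.521 and 0.517 (difference -0.267, limma adjusted p = 0.0442, 0.0824 with the block). The regulator MSN4 fell at -319 bp (-0.213, limma adjusted p = 0.0432, 0.0865 with the block).

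Both rises upstream were those near UGA2. The nucleosome at -672 bp had 0.557, 0.468, 0.458 and 0.473 in untreated and 0.815, 0.816, 0.759 and 0.638 in phenanthroline libraries (difference 0.268, SE 0.0437, limma adjusted p = 0.0116). Every treated value lies above every untreated one. The other at -516 bp rose by 0.237 (limma adjusted p = 0.0101).

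Inside coding sequences the pair of largest falls stood near gene ends. At TPS2 the nucleosome at 2683 bp, in a coding sequence of 2691 bp, had 0.854, 0.837, 0.761 and 0.878 in untreated and 0.521, 0.468, 0.487 and 0.646 in phenanthroline libraries (difference -0.302, SE 0.0434, limma adjusted p = 0.00749). At GLK1 the nucleosome at 1373 of 1503 bp had 0.911, 0.898, 0.836 and 0.891 and 0.682, 0.515, 0.636 and 0.628 (difference -0.269, SE 0.0371, limma adjusted p = 0.00646). Both pairs of groups are apart. At MSN2 the nucleosome at 883 bp had 0.767, 0.699, 0.7001 and 0.841 and 0.648, 0.398, 0.494 and 0.491 (difference -0.244, limma adjusted p = 0.0330), and this call was lost whichever strain label was left out. TPS1 held 3 falls, at 1089, 1260 and 1441 bp (-0.221, -0.181 and -0.225), and RGI1 fell at 98 bp (-0.209). The 6 rises inside genes lay in GDB1 (3757 and 2435 bp), GSY2 (1165 and 2029 bp), GRE1 (301 bp) and TSL1 (1544 bp).

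**Figure D4:**
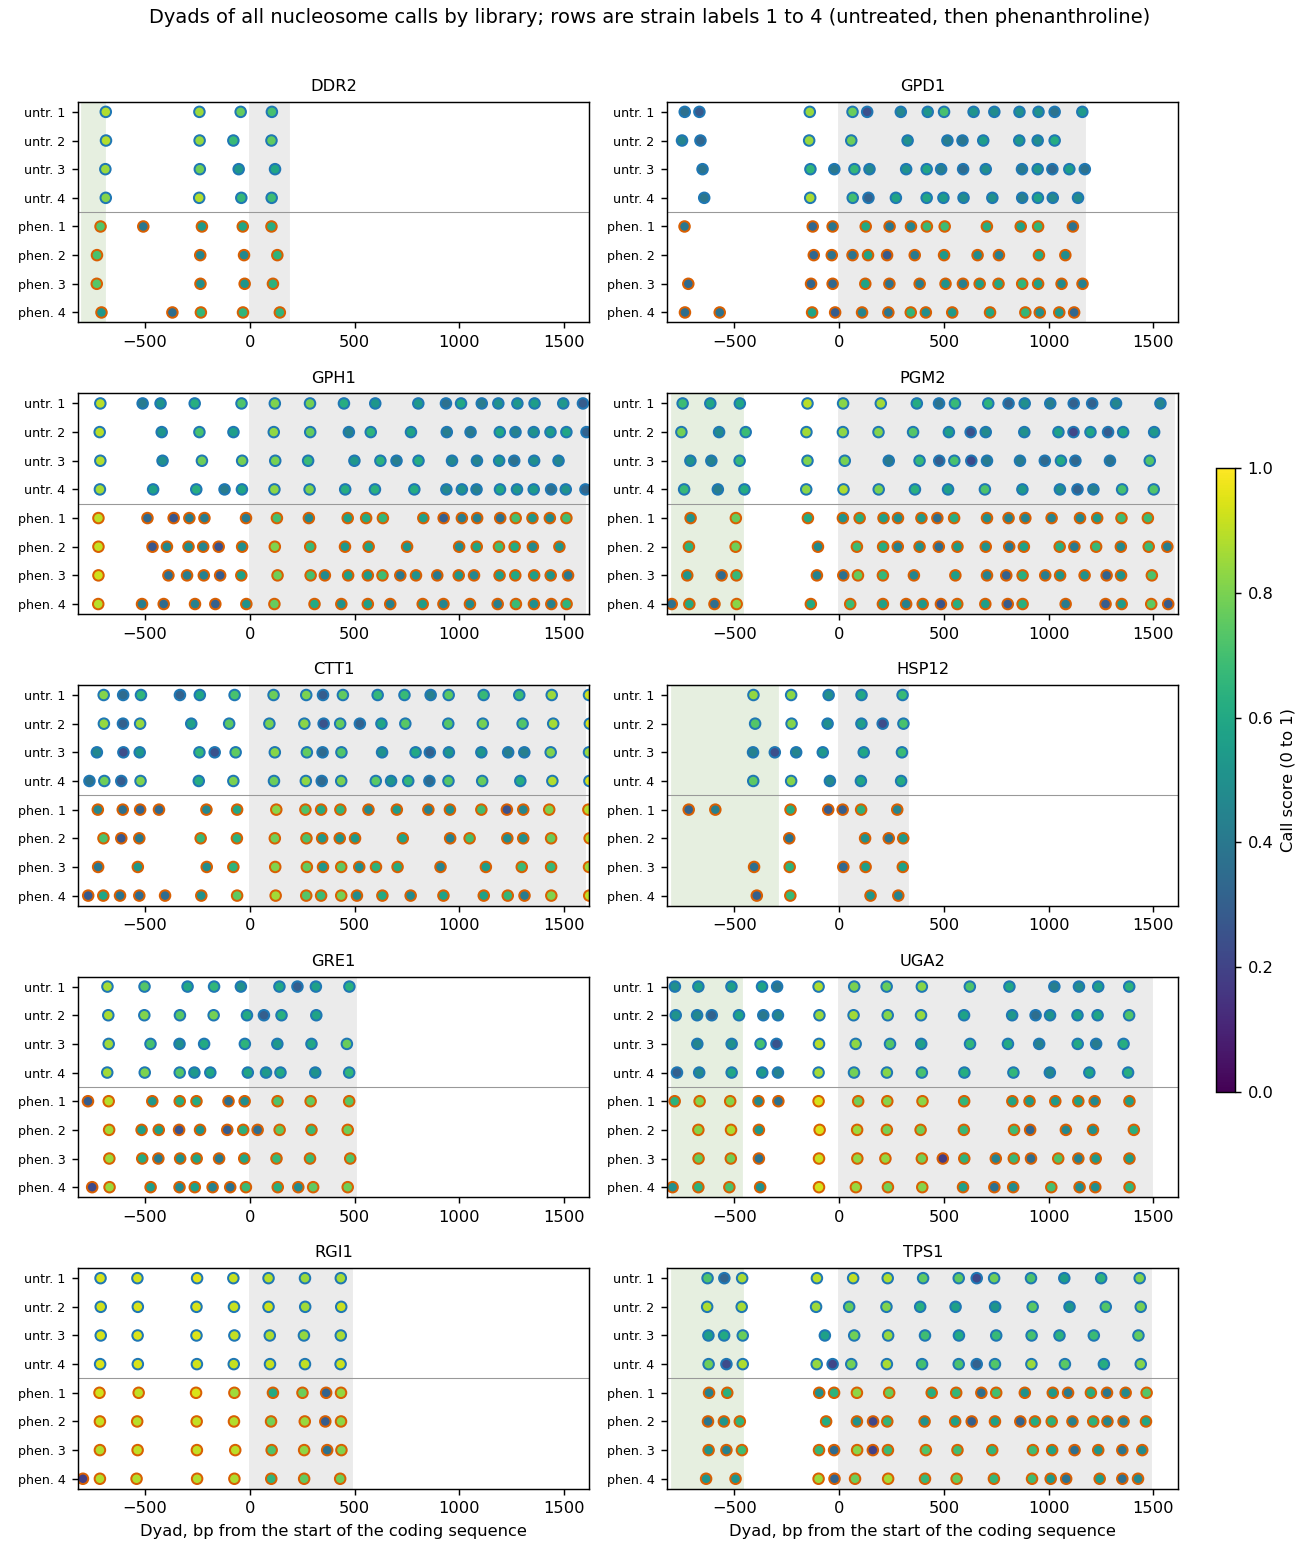
Dyads of all nucleosome calls (x axis, bp from the start of the coding sequence) in the 8 libraries (rows, strain labels 1 to 4 untreated with blue edges, then phenanthroline with orange edges) at 10 stress genes, with the fill giving the call score from 0 to 1. Grey marks the coding sequence and green the side beyond the nearest upstream gene's edge; darker fills under phenanthroline stand at -134 bp of GPD1, -237 bp of DDR2 and -149 bp of PGM2, and lighter fills at -672 and -516 bp of UGA2.

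Over the whole window, from 800 bp upstream to the end of the coding sequence, the mean score fell in 6 of the 34 genes (DDR2, RGI1, TPS1, HSP12, GLC3 and HXK1) and rose in 0. Over all genes 8.09% were called lower and 1.8% higher. The difference was below 0 in 30 of 34, with a median of -0.0361, against -0.0147 over all genes. DDR2, RGI1 and TPS1 passed without each strain label in turn and on centred scores, where UGA2 was higher and the split over all genes was 310 higher and 151 lower in place of 105 and 471. HSP12 and HXK1 passed only without strain label 3 among those 4 settings, and GLC3 in none of them. Among the same 4 settings CTT1 passed as lower only without strain label 3. It also passed as lower when only calls of score 0.4 or more were used.

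DDR2 had a window score of 0.801, 0.789, 0.687 and 0.763 in untreated and 0.576, 0.570, 0.597 and 0.569 in phenanthroline libraries (difference -0.182, SE 0.0236, limma adjusted p = 0.00215). RGI1 (YER067W, chromosome V, 292066 to 292551, forward strand) had 0.904, 0.917, 0.904 and 0.924 and 0.771, 0.794, 0.791 and 0.737 (difference -0.139, SE 0.0173, limma adjusted p = 0.00215). TPS1 (YBR126C, chromosome II, 488905 to 490392, reverse strand) had 0.701, 0.723, 0.683 and 0.672 and 0.580, 0.508, 0.557 and 0.596 (difference -0.135, SE 0.0212, limma adjusted p = 0.00490). In these 3 genes every treated library lies below every untreated one. For HSP12 the values were 0.684, 0.589, 0.490 and 0.648 and 0.436, 0.453, 0.495 and 0.488 (difference -0.135, SE 0.0348, limma adjusted p = 0.0337). For GLC3 (YEL011W, chromosome V, 133120 to 135234, forward strand) they were 0.742, 0.650, 0.654 and 0.705 and 0.575, 0.538, 0.577 and 0.654 (difference -0.102, SE 0.0274, limma adjusted p = 0.0394). The groups of HSP12 overlap in the libraries labelled strain 3, and in GLC3 the treated library labelled strain 4 lies above the untreated ones labelled strain 2 and 3. HXK1 had 0.591, 0.580, 0.540 and 0.604 and 0.478, 0.514, 0.505 and 0.530 (difference -0.0722, SE 0.0189, limma adjusted p = 0.0350), without overlap.

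The remaining reporters and regulators did not pass over the window. CTT1 had 0.650, 0.685, 0.555 and 0.665 in untreated and 0.548, 0.598, 0.617 and 0.588 in phenanthroline libraries (difference -0.0507, limma adjusted p = 0.247). MSN2 had 0.605, 0.560, 0.574 and 0.620 and 0.558, 0.482, 0.587 and 0.593 (difference -0.0350, limma adjusted p = 0.389), and MSN4 0.446, 0.419, 0.499 and 0.470 and 0.484, 0.479, 0.494 and 0.462 (difference 0.0211, limma adjusted p = 0.509). The groups of all 3 overlap. The largest rises over the window, none past the threshold, were at UGA2 (0.618, 0.586, 0.592 and 0.607 against 0.651, 0.683, 0.615 and 0.631, limma adjusted p = 0.141) and SOD2 (0.576, 0.529, 0.584 and 0.562 against 0.601, 0.560, 0.639 and 0.591, limma adjusted p = 0.284).

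The gene-body score, the mean over calls inside the coding sequence, could be tested in 31 of the 34 genes, as CYC7, HSP12 and DDR2 are too short to hold 3 calls in every library. It fell in RGI1, TPS1 and HXK1 and rose in GRE1, against 3.65% lower and 3.16% higher over all genes. RGI1 had 0.866, 0.899, 0.862 and 0.912 in untreated and 0.634, 0.687, 0.685 and 0.728 in phenanthroline libraries (difference -0.201, SE 0.0223, limma adjusted p = 0.00337). TPS1 had 0.701, 0.676, 0.710 and 0.714 and 0.588, 0.498, 0.567 and 0.612 (difference -0.134, SE 0.0242, limma adjusted p = 0.0164), and HXK1 had 0.604, 0.586, 0.608 and 0.625 and 0.519, 0.534, 0.536 and 0.569 (difference -0.0663, SE 0.0174, limma adjusted p = 0.0472). In GRE1, whose upstream score fell, it was 0.522, 0.505, 0.635 and 0.576 and 0.739, 0.642, 0.695 and 0.658 (difference 0.124, SE 0.0308, limma adjusted p = 0.0397). The groups of these 4 genes do not overlap. RGI1 and GRE1 hold 3 to 4 calls in the coding sequence, so each value rests on few calls.

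The next values in each direction did not pass. SOD2 had a gene-body score of 0.470, 0.443, 0.552 and 0.484 in untreated and 0.620, 0.527, 0.595 and 0.604 in phenanthroline libraries (difference 0.0990, limma adjusted p = 0.0547, 0.0383 with the block, where it passed as higher). SOL4 had 0.648, 0.603, 0.559 and 0.574 and 0.766, 0.695, 0.693 and 0.572 (difference 0.0855, limma adjusted p = 0.177), and SPI1 0.552, 0.650, 0.437 and 0.604 and 0.517, 0.459, 0.436 and 0.552 (difference -0.0694, limma adjusted p = 0.336). The groups of these 3 genes overlap. Without strain label 1 limma called 0 of the 31 genes (827 of all genes had an unadjusted p under 0.05), without 4 RGI1 alone, without 3 RGI1 and GRE1, and without 2 RGI1, TPS1 and SOD2. On centred scores RGI1 and TPS1 were lower and GRE1 and SOD2 higher, with 528 genes higher and 100 lower overall in place of 161 and 186. The mean number of calls inside the coding sequence was 11.18 in untreated and 12.04 in phenanthroline libraries per stress gene, and 9.70 and 10.06 over all genes, in both cases without overlap between the groups.

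The width of the depleted region, the distance between the -1 and +1 dyads, could be tested in 25 stress genes. Their median width ran from 183.5 to 192 bp in untreated and from 181 to 200 bp in phenanthroline libraries, against 254 to 264 bp and 267 to 269 bp over all genes. The width rose in GLC3, PGM2 and GAD1 and fell in HXK1, while 23.9% of all genes were called wider and 2.13% narrower. It was wider in 3 of 25, and the median difference was 3.5 bp against 7 bp over all genes.

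In GLC3 the width was 246, 244, 256 and 252 bp in untreated and 276, 289, 298 and 282 bp in phenanthroline libraries (difference 36.8 bp, SE 5.08, limma adjusted p = 0.00956). In PGM2 (YMR105C, chromosome XIII, 475897 to 477606, reverse strand) it was 323, 290, 324 and 295 bp and 344, 393, 384 and 354 bp (difference 60.8 bp, SE 13.0, limma adjusted p = 0.0212). Both pairs of groups were apart. In GAD1 it was 218, 210, 254 and 213 bp and 263.5, 259.5, 256 and 257.5 bp (difference 35.4 bp, SE 9.18, limma adjusted p = 0.0319), where the untreated library labelled strain 3 nearly reaches the treated ones. In HXK1 it was 172, 212, 181 and 181 bp and 167, 157, 145 and 137.5 bp (difference -34.9 bp, SE 9.67, limma adjusted p = 0.0371), again without overlap. GLK1, GPP2 and GDB1 had the widest regions, with untreated means of 577, 566 and 440 bp. In the fit blocked by strain label GLC3 alone passed, without strain label 1, 2 or 4 none did (1450, 1830 and 1592 of all genes had an unadjusted limma p under 0.05), and without strain label 3 there were 7.

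**Figure D5:**
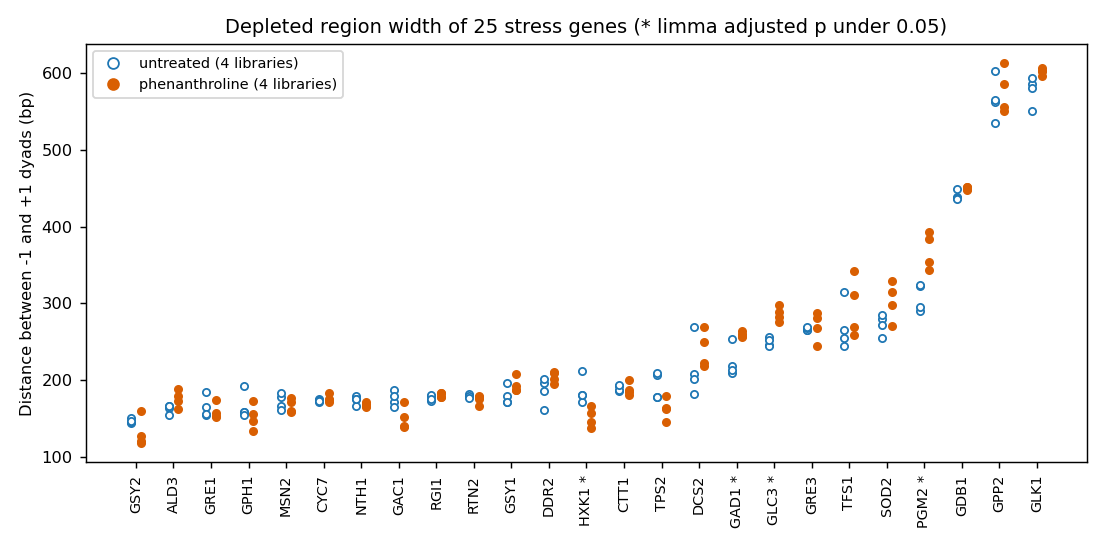
Distance between the -1 and +1 dyads (y axis, bp) in each of 25 stress genes ordered by the untreated mean, with a point for each of 4 untreated (open blue) and 4 phenanthroline (filled orange) libraries; asterisks mark limma adjusted p under 0.05. Untreated means run from 146.75 bp at GSY2 to 577 bp at GLK1, and PGM2 shows the largest rise, 60.8 bp.

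Dyads shifted at 7 of the 372 tested nucleosomes of the stress genes, and 1.27% of nucleosomes shifted over the genome. The largest shift was at the +1 of ALD3, whose dyads lay at -103, -106, -80 and -107 bp from the coding start in untreated and at -67, -61, -43 and -57 bp in phenanthroline libraries (42.0 bp downstream, SE 7.44, limma adjusted p = 0.0494). In GDB1 the nucleosome at 115 bp lay at 97, 88, 103 and 95 bp and 133, 136, 129 and 126 bp (35.2 bp downstream, SE 3.70, limma adjusted p = 0.0105). These were the 2 downstream shifts. The other 5 were upstream with respect to the gene. In MSN2 the dyad at 1983 bp moved from 2005, 1991, 2012 and 2006 to 1977, 1964, 1959 and 1966 bp (difference -37.0 bp, limma adjusted p = 0.0324), and that at 547 bp from 568, 554, 561 and 560 to 532, 523, 532 and 537 bp (difference -29.8 bp, limma adjusted p = 0.0244). In TFS1 the dyad at 597 bp moved from 619, 608, 634 and 627 to 585, 587, 587 and 584 bp (difference -36.2 bp, limma adjusted p = 0.0321). All 3 lie inside coding sequences, and their groups do not overlap. Before DDR2 a dyad moved from -688, -687, -690 and -688 to -713, -730, -731 and -708.5 bp (difference -32.4 bp, limma adjusted p = 0.0433), and before GLC3 from -372, -371, -373 and -372 to -384, -392, -389 and -385 bp (difference -15.5 bp, limma adjusted p = 0.0324). None of the 7 passed with the strain label as a block, a fit in which limma called 0 dyads in the genome and 13460 had an unadjusted p under 0.05.

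Of the 545 consensus nucleosomes 2 were gained and 1 was lost, that is, had calls in every library of a treatment and 0 calls in the other (0.367% and 0.183%). Over the genome 92 of 76988 were gained and 106 lost (0.119% and 0.138%). Inside TPS1 a nucleosome at 1357 bp was gained under phenanthroline with scores of 0.473, 0.436, 0.398 and 0.363, and inside GAC1 another at 712 bp with 0.344, 0.348, 0.375 and 0.359. Upstream of GPD1 the nucleosome at -657 bp was lost, with scores of 0.278, 0.330, 0.385 and 0.392 in the untreated libraries. All 3 were calls of low score.

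Genes that signal to or beside Msn2 and Msn4 were read from a separate list of 25, with the kinases Rim15 and Yak1 and the protein kinase A and Ras pathway. Their upstream score was lower in 4 of 25 (CDC25, RIM15, GIS1 and RAS2) and higher in 0, with a median difference of -0.0420. This is 16.0% of the list, near the 14.1% of all genes. Over the window it was lower at RAS2, a small GTPase that activates adenylate cyclase (-0.0831, limma adjusted p = 0.0437), and at PDE2, a cAMP phosphodiesterase (-0.0807, limma adjusted p = 0.0322). In the gene body BCY1, the regulatory subunit of protein kinase A, was higher (0.0878, limma adjusted p = 0.0478) and PDE2 lower. The depleted region was wider at 4 of 19 tested: CYR1, adenylate cyclase (26.5 bp, limma adjusted p = 0.00237), MSN5, YAK1 and TPK2 (20.5, 18 and 14.75 bp), against 23.9% of all genes.

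A further list of 49 stress targets outside the 34 had 48 genes that could be tested upstream, of which 8 were lower (GIP2, HSP78, PEP4, MRK1, ATH1, HSP26, DAK2 and DCS1) and 0 higher, with a median difference of -0.0287. The 8 are 16.7% of those tested, near the 14.1% of all genes. Over the window 6 were lower: HSP26, a small heat shock protein (-0.138, limma adjusted p = 0.0147), SIP18, DCS1, CCP1, MRK1 and GIP2 (differences -0.121, -0.109, -0.0962, -0.0770 and -0.0601). HSP26, CCP1 (mitochondrial cytochrome c peroxidase) and DCS1 were lower in the gene body too. The depleted region was wider at 6 of 36 tested (TPS3, GRX2, HSP78, PRB1, DAK2 and PNC1), against 23.9% of all genes, and narrower at GRX1, a glutaredoxin (-29.6 bp, limma adjusted p = 0.0192). The 3 lists rest on the same 8 libraries, and a difference between the lists was not tested.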

How the data were processed

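Nucleosomes were measured by MNase-seq in 8 libraries (4 untreated, 4 phenanthroline). Per the labels' protocols, semi-intact cells were digested to about 80% mononucleosomes and sequenced as paired reads of 75 bp, about 10 M pairs per sample. Per the file headers, the authors called nucleosomes with nucleR and deposited, per call, a score between 0 and 1 (a fraction, not a depth-based count), its width and height parts, and a class. The build is sacCer3, per the submitters' processing notes; the version of nucleR, like the aligner, is not given in the sources used here. The score is the mean of its parts, so it follows both coverage relative to the library and the scatter of fragments; the depth behind a single call is unknown.

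Call coordinates were used as the authors deposited them, except that 81 bp was subtracted beyond each library's own insert step and calls within 150 bp of a site were dropped. Afterwards no window of 20000 bp was off by over 40 bp (0 windows, at most 8 bp). Gene positions are coding sequences of the RefSeq table of assembly R64, the same assembly as sacCer3, and strand was taken from the systematic name. Genes needed at least 1 call upstream, or 3 in the window or coding sequence, in every library. Consensus nucleosomes were maxima of pooled dyads (Gaussian SD 20 bp, at least 80 bp apart, calls assigned within 60 bp). The -1 and +1 flank the widest gap whose downstream side lies -150 to +200 bp from the coding start.

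The 4 libraries of each treatment were fitted in limma 3.58.1 (R 4.3.3) over all features. Adjusted p-values (Benjamini-Hochberg) under 0.05 were called. The fit was also run on values simulated like the window scores with independent noise. These held no strain pairing and no shift of whole libraries, so they cannot show how the fit behaves under either. Tables used Python 3.11.15, numpy 2.4.6, pandas 2.3.3 and scipy 1.17.1, and plots matplotlib 3.10.9. Libraries of the same strain label came from the same strain and shared their insert steps, so the numbers pair the samples. Their deviations in window score correlated at 0.0303, 0.280, 0.0808 and 0.0672. Between unlike labels the correlation ran from -0.199 to 0.172, so the pairing rests on the steps and not on the scores. The fit without the strain label as a block was the main one, as no methods text used here has such a block. Its p-values therefore do not use the pairing. Alternatives were the block, centred scores, the width or height score alone, other filters on calls, and leaving out both libraries of each strain label. Values in every library are given for stress genes called in any of 4 gene measures, the 3 largest rises and falls over the window and gene body, MSN2, MSN4, CTT1, HSP12 and DDR2; for the 12 called nucleosomes with the largest score difference, the called dyad shifts and every gain or loss; other genes are named by role. The stress genes, the other lists and these rules were chosen with earlier results of these data known. The window result of a signalling gene is not reported here.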

Additional observations from a re-analysis of the deposited data

Results flagged for a closer look

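The untreated library labelled strain 3 stood apart at HSP12, where its upstream score was 0.417 and the other 3 untreated libraries ranged from 0.679 to 0.719. Its gap to the nearest library passed the 95% limit for an outlier among 4 values. This was 1 of 78 groups examined, and chance alone marks about 1 in 20. HSP12 had 4 upstream calls in that library, against 3 in each of the other untreated ones, and 3 overlapping pairs of calls against 0.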

How the results depend on the processing

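With both libraries of a strain label left out, genes or nucleosomes past the threshold numbered 48 to 424 for the window score (576 with all libraries), 26 to 677 upstream (926), 1 to 275 in the gene body (347), 9 to 1636 for width (1368), 696 to 3739 for nucleosome score (5039) and 65 to 1075 for dyads (766). Among the stress genes they were 3 to 6 lower over the window (6), 1 to 11 lower upstream (12), 0 to 3 changed in the gene body (4), 0 to 7 changed in width (4), 3 to 28 lower nucleosomes (39) and 1 to 5 lower +1 nucleosomes (10). Fewer libraries are fitted there; no other cause was tested.

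With the strain label as a replicate block, 598 genes passed upstream, 36 for width and 0 dyads, with 1 stress gene changed in width and 6 lower at +1; other counts of calls stayed within 1.5 times. Centred scores gave 370 genes upstream and 628 in the gene body, and 5 stress genes lower upstream, 3 over the window, 23 lower nucleosomes and 6 at +1. The width score alone gave 346 genes over the window, 176 upstream, 204 in the gene body and 1951 nucleosomes; among the stress genes the counts were 3, 1 and 2, and 6 at +1. The height score alone gave 979 over the window and 739 in the gene body. The median over calls gave 605 upstream, and calls assigned within 30 bp gave 1519 dyads and 5 at +1. Leaving out regions beyond the first site gave 6 at +1. That setting takes GPD1, GDB1, GRE3 and DCS2 out of the test, so it says nothing about their calls.

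Of the alternatives for 58 single named values, 620 in all, 417 kept direction and side of the threshold, 185 lost the call, 14 gained it and 4 reversed. The reversed values were the upstream width score alone at CTT1 (0.00682), MSN2 (0.00169) and MSN4 (0.0210), and the window score of UGA2 without calls in other coding sequences (-0.00286); the cause was not tested. Depth per call is not in the files, so no interval for counting error is given.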
